A study of Mus musculus with 23 samples.

Results

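Kainate receptors are ionotropic glutamate receptors built from the subunits encoded by Grik1 to Grik5, and Neto1 and Neto2 encode their auxiliary subunits. All probe sets whose array annotation names 1 of these 7 genes, of 18192 genes so named, and no other gene were taken, which gave 14 probe sets of 45136 tested. Of these, 6 were among 22625 probe sets on MOE430A and covered Grik1, Grik2, Grik3, Grik5 and Neto1, and 8 were among 22511 on MOE430B and covered Grik1, Grik2, Grik3, Grik4, Neto1 and Neto2. Grik5 was measured on MOE430A only, Grik4 and Neto2 on MOE430B only.

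Expression was measured in the hippocampal CA3 region of 18-month-old mice on Affymetrix 1-colour arrays. The UBB+1 tg mice (6 on each array) were heterozygous animals of a single transgenic line on a C57BL/6J background, in which the CaMKIIα promoter, active in postnatal neurons and most strongly in the forebrain, drives human UBB+1, a mutant ubiquitin that inhibits the proteasome. The wild-type mice (5 on MOE430A, 6 on MOE430B) were non-transgenic littermates on the same background, and the labels give no sex. Each array held the RNA of 1 mouse, cut by laser from cresyl violet-stained sections and amplified in 2 rounds, so p-values measure the spread between mice. The comparison asked whether chronic UBB+1 expression was accompanied by a different level of these transcripts.

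Among the subunits, GluK1 to GluK3 (Grik1 to Grik3) can form channels by themselves and bind kainate with low affinity, whereas GluK4 and GluK5 (Grik4 and Grik5) bind it with high affinity and need a GluK1 to GluK3 partner to form a channel. In CA3, kainate receptors are known from the synapse between the mossy fibres of dentate granule cells and the pyramidal cells, where they act before and after the synaptic cleft and carry a slow part of the postsynaptic current. Neto1 and Neto2 are transmembrane proteins with CUB domains that slow the gating of kainate receptors. Neto1 is the one required for the slow kainate receptor current at the mossy fibre synapse.

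Values are log2 RMA intensities, on which 1 unit is a factor of 2 in brightness. Levels of different probe sets cannot be set against each other, so each probe set is described by its own values and by its place in the brightness order of its array, as a percentile of the tested probe sets. Of the 14 probe sets, 11 lay at or above the 25th percentile. The other 3, Grik1 1427676_a_at on MOE430A at the 13.98th percentile, Grik3 1440177_at on MOE430B at the 2.39th and Neto2 1457344_at on MOE430B at the 22.9th, were dim, and their values say little about the transcript. The tissue carried the markers of CA3 pyramidal cells: Bok, Nectin3 and Iyd stood at the 96.9th, 92.5th and 85.3rd percentile of MOE430A. Markers of other subfields were measured as well. The dentate granule cell markers Prox1, Dsp, Tdo2 and Lct stood at the 1.78th, 30.6th, 31.0th and 68.6th percentile of MOE430A. The CA2 markers Pcp4 and Rgs14 stood at the 85.5th and 83.8th of MOE430A, and Amigo2 at the 60.9th of MOE430B. The CA1 markers Wfs1 and Pou3f1 stood at the 71.7th and 47.7th of MOE430A, and Mpped1 and Fibcd1 at the 86.8th and 42.1st of MOE430B. A share of cells from neighbouring subfields was not tested. The probe set that detects a transcribed piece of the transgene's promoter read 8.45 to 9.34 in the 6 UBB+1 tg mice and 6.41 to 6.85 in the 5 wild-type mice of MOE430A, as labelled, and was left out of all tests.

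The arrays differed in a measure of RNA quality within both genotypes. In the control probe sets for Gapdh and β-actin, the 3' probe set was brighter than the 5' one, by 4.61 ± 0.83 log2 units in UBB+1 tg mice and 4.10 ± 1.45 in wild-type mice on MOE430A (SD, n = 6 and 5, exact permutation test, two-sided, p = 0.455), and by 4.85 ± 0.81 and 4.22 ± 1.51 on MOE430B (SD, n = 6 each, exact permutation test, two-sided, p = 0.407). A larger 3'-5' difference means that less of the amplified RNA extends to the 5' part of the transcript. By the correlation of whole arrays the mice fell into 3 array sets, which follow it: a high set with mouse tg270 and mouse wt289, a low set with tg271, wt287 and wt290, and a middle set with the remaining 4 UBB+1 tg mice and the remaining wild-type mice (2 on MOE430A, 3 on MOE430B). The array sets were found from these data and are no groups of the study.

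No kainate receptor or Neto probe set differed between UBB+1 tg and wild-type mice at a false discovery rate of 10% (limma, Benjamini-Hochberg adjustment over all probe sets of the array). The adjusted p of the 14 ranged from 0.984 to 1.000. On both arrays 0% of all probe sets passed. At an unadjusted p under 0.05 there were 0 of 6 members on MOE430A, where 3.48% of all probe sets lay under it, and 1 of 8 on MOE430B, where 3.05% did. Of the 14, 9 had a higher mean in UBB+1 tg mice and 5 a lower one. On MOE430A 4 of 6 were higher, against 51.7% of all probe sets, and on MOE430B 5 of 8, against 47.6%. The median difference was 0.05 log2 units over the 6 on MOE430A, against 0.00 over all probe sets of that array, and 0.06 over the 8 on MOE430B, against -0.01. The 6 Neto probe sets all had the higher mean in UBB+1 tg mice (median difference 0.31), and the 8 Grik probe sets were divided, 3 higher and 5 lower (median -0.00). Both Grik3 probe sets, counted as lower, stood close to no difference, at -0.0038 and -0.0044. The 6 Neto probe sets cover only Neto1 and Neto2 in largely the same mice, and are no independent measures. The direction of 2 Neto probe sets was not the same under other settings: Neto1 1456283_at stood at 0.00 with the 3'-5' difference in the model and at -0.11 in the middle array set alone, and the dim Neto2 1457344_at at -0.040 with array weights and at -0.15 in the middle set.

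**Figure D1:**
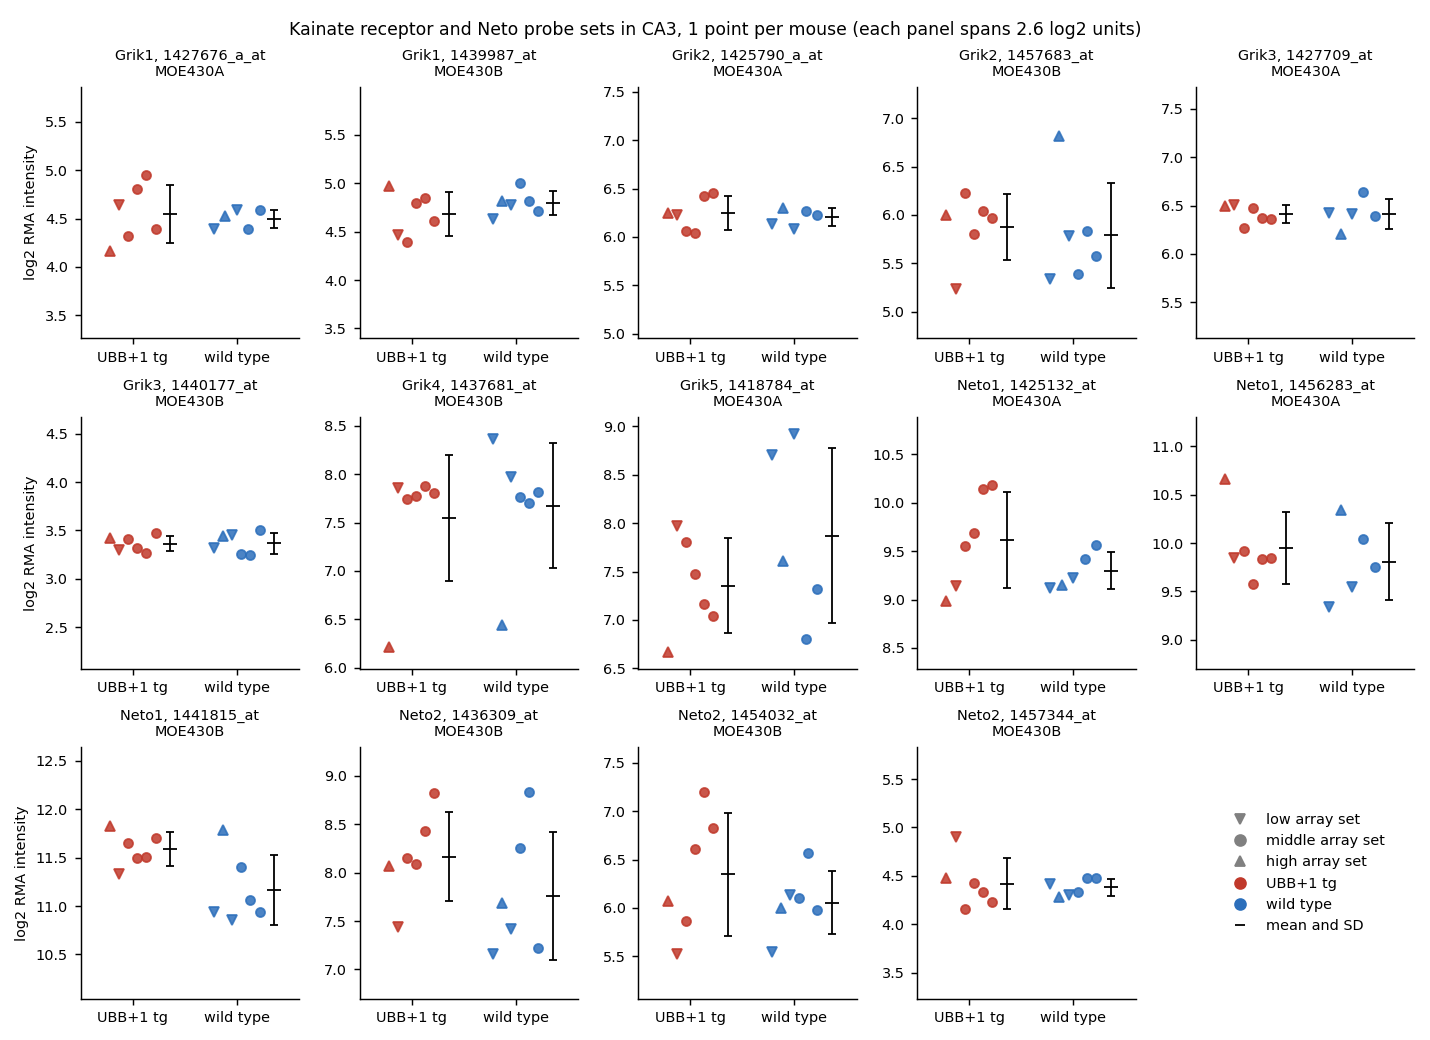
Log2 RMA intensity (vertical axis, 2.6 log2 units in every panel) of each kainate receptor and Neto probe set in UBB+1 tg mice (red, left) and wild-type mice (blue, right), 1 point per mouse, with the mean and SD as a black bar and the array set as the marker shape. The groups overlap in all 14 panels, and for Grik4 the mice tg270 (6.22) and wt289 (6.44) of the high array set lie apart from the others.

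Grik2, whose product GluK2 is the main subunit of the postsynaptic receptor in CA3, read 6.04 to 6.46 (median 6.24) in the 6 UBB+1 tg mice on MOE430A, against 6.13, 6.30, 6.09, 6.27 and 6.23 in the 5 wild-type mice (probe set 1425790_a_at). The difference was 0.04 (SE 0.09, 95% interval -0.16 to 0.25). The other Grik2 probe set, 1457683_at on MOE430B, spread further, with 5.23 to 6.22 (median 5.98) in UBB+1 tg mice and 5.33 to 6.82 (median 5.68) in wild-type mice. Its highest value belonged to wt289 and its lowest to tg271, so the UBB+1 tg values lay inside the wild-type range except for that 1 mouse. The difference was 0.09 (SE 0.24, 95% interval -0.43 to 0.60), 0.29 without wt289 and -0.07 with the 3'-5' difference in the model. Its direction was not the same within the array sets, at -0.33 in the low set (1 against 2 mice), 0.41 in the middle set (4 against 3) and -0.82 in the high set (1 against 1). The 2 Grik2 probe sets differ in precision, with intervals that reach 0.25 log2 units on MOE430A and 0.60 on MOE430B. They stood at the 47.3rd percentile of MOE430A and the 59.0th of MOE430B. How much of the narrower spread comes from background signal was not tested.

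Grik1 and Grik3 each had 1 dim probe set. Grik1, whose product GluK1 is known in the hippocampus mainly from interneurons, read 4.39 to 4.98 (median 4.71) in UBB+1 tg mice and 4.63 to 5.002 (median 4.80) in wild-type mice with probe set 1439987_at, at the 30.9th percentile of MOE430B. The difference was -0.11 (SE 0.10, 95% interval -0.34 to 0.11), and with 1 mouse left out it ranged from -0.17 (without tg270) to -0.05 (without tg273), with -0.07 without tg271 and -0.07 without wt291. The dim Grik1 probe set on MOE430A had a difference of 0.05 (SE 0.14). Grik3, whose product GluK3 is a presynaptic subunit at the mossy fibre synapse, read 6.27 to 6.51 (median 6.43) in UBB+1 tg mice, against 6.43, 6.21, 6.41, 6.64 and 6.39 in wild-type mice on MOE430A (1427709_at). Its difference of -0.00 (SE 0.08, 95% interval -0.19 to 0.18) was as small as that of the dim Grik3 probe set on MOE430B (-0.00, SE 0.07), and the residual SD of both was low, at the 18.5th and 8.94th percentile of their arrays. By brightness 1427709_at stood at the 51.3rd percentile of MOE430A.

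Because tissue was measured in bulk, fewer cells of a type and less RNA per cell cannot be told apart. This touches Grik1 first, as the interneuron markers, of which all 8 were measured on MOE430A, had a summed level (log2 of the summed intensities) of 11.62 to 12.73 in UBB+1 tg mice and 11.83 to 12.60 in wild-type mice. This sum averaged 12.06 in UBB+1 tg mice and 12.30 in wild-type mice, a difference of -0.24. As a sum of intensities it is weighted towards the brightest marker, Cck, at the 97.1st percentile, with a difference of -0.29 (SE 0.27). The median difference of the 8 markers was -0.05. Of the 8 markers 4 had the higher and 4 the lower mean in UBB+1 tg mice, and none passed the false discovery rate by genotype. Their differences ranged from -0.82 (SE 0.44, limma adjusted p = 0.984) for Sst, which encodes somatostatin, to 0.30 (SE 0.26) for Gad1. Their part in the Grik1 values was not tested.

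The high-affinity subunits had the largest residual SD of the 14 probe sets, 0.71 log2 units for Grik5 and 0.65 for Grik4. Grik5, encoding GluK5, the usual partner of GluK2 in the postsynaptic receptor, stood at the 72.3rd percentile of MOE430A and read 6.67 (tg270), 7.97 (tg271), 7.80, 7.48, 7.16 and 7.04 in UBB+1 tg mice. The 5 wild-type mice read 8.70 (wt287), 7.61 (wt289), 8.92 (wt290), 6.81 (wt291) and 7.32 (wt321). Only wt287 and wt290, both of the low array set, lay above every UBB+1 tg mouse, and wt291 lay below all of them but tg270. The difference, -0.52 (SE 0.39, 95% interval -1.37 to 0.33, adjusted p = 0.984), was the largest of the 14 in size and had the widest interval. The mean was lower in UBB+1 tg mice by 0.84 in the low set (1 against 2 mice) and by 0.93 in the high set (1 against 1), and higher by 0.31 in the middle set (4 against 2), so its direction was not the same within the array sets. Without wt290 the difference was -0.26, and without wt291 it was -0.78.

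Grik4, encoding GluK4, which in the hippocampus is known chiefly from CA3 pyramidal cells and dentate granule cells, stood at the 89.99th percentile of MOE430B. It read 6.22 (tg270), 7.86, 7.75, 7.78, 7.88 and 7.81 in UBB+1 tg mice, and 8.37 (wt287), 6.44 (wt289), 7.98 (wt290), 7.77, 7.70 and 7.81 in wild-type mice. In each genotype 1 mouse, the one of the high array set, was more than 1 log2 unit under the next. The 4 UBB+1 tg and 3 wild-type mice of the middle set spanned 7.75 to 7.88 and 7.70 to 7.81, with a difference of 0.04 between their means. Over all mice the difference was -0.13 (SE 0.34, 95% interval -0.86 to 0.60), and it was 0.14 without tg270 and -0.38 without wt289. The residual SD of Grik4 was at the 97.8th percentile of MOE430B, and that of Grik5 at the 96.2nd percentile of MOE430A.

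Neto1 was bright with all 3 of its probe sets. On MOE430B its probe set 1441815_at, at the 99.8th percentile, read 11.83 (tg270), 11.33 (tg271), 11.65, 11.50, 11.51 and 11.71 in UBB+1 tg mice, against 10.94 (wt287), 11.79 (wt289), 10.85 (wt290), 11.41 (wt291), 11.06 and 10.94 in wild-type mice. All 6 UBB+1 tg mice lay above the wild-type mean, but wt289 lay above 5 of them and wt291 above 1. The difference was 0.42 (SE 0.15, 95% interval 0.09 to 0.75, adjusted p = 1.000), 1.34-fold, with an unadjusted p of 0.0159 from limma, rank 172 among the 22511 probe sets. It was 0.43 in the low set (1 against 2 mice), 0.46 in the middle set (4 against 3) and 0.04 in the high set (1 against 1). With the 3'-5' difference in the model it was 0.29 (SE 0.09, adjusted p = 0.999), and with 1 mouse left out it ranged from 0.36 to 0.55.

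The 2 Neto1 probe sets on MOE430A did not follow the same mice. Probe set 1425132_at, at the 91.0th percentile, read 8.99 (tg270), 9.14 (tg271), 9.56, 9.69, 10.14 and 10.18 in UBB+1 tg mice and 9.12, 9.15, 9.23, 9.42 and 9.57 in wild-type mice. Only 3 UBB+1 tg mice, all of the middle set, lay above every wild-type mouse, and tg270 lay below every wild-type mouse. The difference was 0.32 (SE 0.22, 95% interval -0.16 to 0.80), and by array set it was 0.40 in the middle set (4 against 2 mice), -0.03 in the low set (1 against 2) and -0.16 in the high set (1 against 1). It was 0.17 with the array set as a block, 0.54 with array weights (limma adjusted p = 0.473), 0.21 without tg277, 0.22 without tg276 and 0.45 without tg270, the last being the highest with 1 mouse left out. Probe set 1456283_at, at the 93.3rd percentile, read 10.66 (tg270), 9.85, 9.92, 9.57, 9.83 and 9.84 in UBB+1 tg mice and 9.34 (wt287), 10.34 (wt289), 9.54 (wt290), 10.04 and 9.75 in wild-type mice. Here the mouse of the high set was the highest in each genotype. The difference was 0.14 (SE 0.21, 95% interval -0.33 to 0.61), -0.11 in the middle set (4 against 2 mice) and -0.00 without tg270. That all 3 Neto1 probe sets had the higher mean in UBB+1 tg mice rests on largely the same mice, and the 3 are no independent measures of the gene.

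Neto2 was covered by 3 probe sets on MOE430B. The brightest, 1436309_at at the 92.4th percentile, read 8.07 (tg270), 7.44 (tg271), 8.15, 8.09, 8.43 and 8.82 in UBB+1 tg mice and 7.16 (wt287), 7.69, 7.42 (wt290), 8.25, 8.84 (wt321) and 7.22 (wt331) in wild-type mice. All 6 UBB+1 tg mice lay within the wild-type range, and the highest value was that of wild-type mouse wt321. The difference was 0.40 (SE 0.29, 95% interval -0.23 to 1.04, adjusted p = 1.000), and 0.62 without wt321. Probe set 1454032_at read 5.52 to 7.20 (median 6.34) in UBB+1 tg mice and 5.55 to 6.57 (median 6.05) in wild-type mice. Its difference was 0.29 (SE 0.26, 95% interval -0.27 to 0.86), and 0.12 without tg276, the mouse with the highest value. The dim probe set 1457344_at differed by 0.04 (SE 0.11), and its highest value, 4.90, was that of tg271, which was the lowest UBB+1 tg mouse on the other two.

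**Figure D2:**
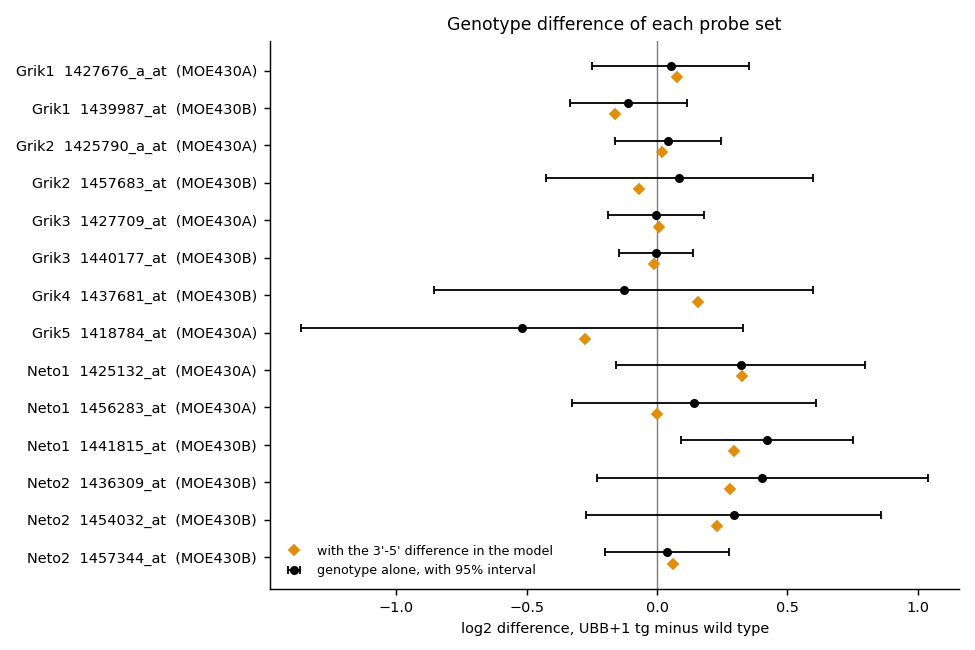
Log2 difference between UBB+1 tg and wild-type mice (horizontal axis) of each probe set, with its 95% interval (black, limma with genotype alone), and the same difference with the 3'-5' difference in the model (orange). All intervals but that of Neto1 1441815_at (0.09 to 0.75) hold 0, and Grik5 (-1.37 to 0.33) has the widest.

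The spread of these transcripts was then set against the 3'-5' difference in a model that also held genotype. The 3'-5' term passed a false discovery rate of 10% for 4 of the 14 probe sets: Grik5 and Neto1 1456283_at on MOE430A, Grik4 and Neto1 1441815_at on MOE430B. On MOE430A 1 of 6 members was higher with a larger 3'-5' difference, as were 3.91% of all probe sets, and 1 of 6 lower, as were 4.35%. On MOE430B 1 of 8 was higher, against 0.675% of all, and 1 of 8 lower, against 0.937%. The calls fell on both high-affinity receptor subunits, which were lower, and on 2 of 3 probe sets of Neto1, which were higher.

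Grik5 was lower by 0.48 log2 units per log2 unit of the 3'-5' difference (slope -0.48, SE 0.12, adjusted p = 0.0522 from limma). Without the 2 mice of the high set the slope was -0.86 (adjusted p = 0.00221), and wt289 of that set read 7.61 at the largest 3'-5' difference. In that setting 4937 of all 22625 probe sets of MOE430A passed, against 1870 over all mice. The adjusted p of Grik5 was 0.124 without tg270, 0.115 without tg271, 0.160 without wt287 and 0.169 without wt290, and so no longer under 0.10. Grik4 had a slope of -0.45 (SE 0.09, adjusted p = 0.0415), and one of -0.17 without the high set (adjusted p = 0.0735). Without that set 2597 of all 22511 probe sets of MOE430B passed, against 363 over all mice. The adjusted p of Grik4 was 0.135 without wt287 and 0.131 without wt289. The 2 low-set wild-type mice were the highest for both genes, and the high set held the lowest Grik4 values.

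Neto1 1456283_at had a slope of 0.28 (SE 0.06, adjusted p = 0.0288) and Neto1 1441815_at one of 0.20 (SE 0.04, adjusted p = 0.0481). Without the high set these slopes were 0.17 (adjusted p = 0.208) and 0.14 (adjusted p = 0.173), no longer past the threshold. Without wt287 they were 0.27 (adjusted p = 0.101) and 0.23 (adjusted p = 0.104), and without wt289 that of 1441815_at was 0.15 (adjusted p = 0.148). The other Neto1 probe set, 1425132_at, had a slope of -0.01 (SE 0.11) over all mice and of 0.29 without the high set (adjusted p = 0.139). For none of the other probe sets did the term pass, the nearest being Grik2 1457683_at with 0.25 (SE 0.08, adjusted p = 0.223), and for both Grik3 probe sets the slope was within 0.03 of 0.

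**Figure D3:**
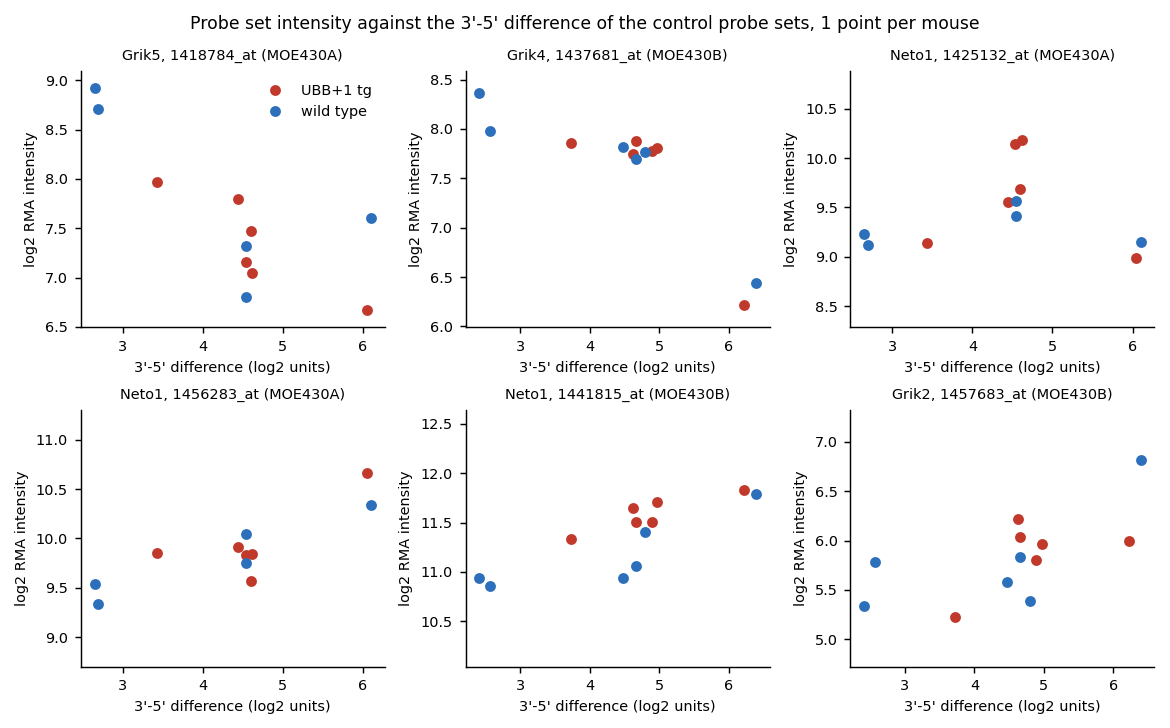
Log2 RMA intensity (vertical axes, 2.6 log2 units in every panel) against the 3'-5' difference of the control probe sets of the same array (horizontal axes, log2 units) for 6 probe sets, 1 point per mouse, UBB+1 tg in red and wild type in blue. Grik5 and Grik4 are highest in the 2 wild-type mice with the smallest 3'-5' difference, and Neto1 1456283_at and 1441815_at are highest in the 2 mice with the largest.

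With the 3'-5' difference in the model, the genotype difference of Grik5 was -0.28 (SE 0.26), that of Grik4 0.16 (SE 0.20) and that of Neto1 1456283_at 0.00 (SE 0.13). The residual SD fell to 0.38 from 0.65 log2 units for Grik4, to 0.47 from 0.71 for Grik5 and to 0.16 from 0.28 for Neto1 1441815_at. The adjusted p for genotype stayed between 0.998 and 1.000 on MOE430A and at 0.999 on MOE430B. What the 3'-5' difference stands for in these transcripts was not tested. Of 46 cell type markers measured on MOE430A, 1 passed on this term in the higher direction and 3 in the lower, against 3.91% and 4.35% of all probe sets, and of 4 on MOE430B 0 passed. Bok, a CA3 pyramidal cell marker, had a slope of -0.46 (adjusted p = 0.0176), Gad1, an interneuron marker, one of 0.35 (adjusted p = 0.0148), C1qa, a microglial marker, one of -0.48 (adjusted p = 0.0152) and the dim Mog, an oligodendrocyte marker, one of -0.29 (adjusted p = 0.0238). The markers of the same cell types that did not pass did not all share these directions, with slopes of 0.08 and 0.19 for the CA3 markers Nectin3 and Iyd, -0.23 to 0.17 for 7 interneuron markers, -0.23 to 0.23 for 4 microglial markers and -0.04 to 0.21 for 3 oligodendrocyte markers. The 2 CA3 values were opposite in sign to that of Bok, and the summed level of the 3 CA3 markers was 10.93 to 12.20 in UBB+1 tg mice and 10.76 to 12.02 in wild-type mice. By genotype no marker of any cell type list passed the false discovery rate. The part of these markers in the Grik and Neto values was not tested.

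**Figure D4:**
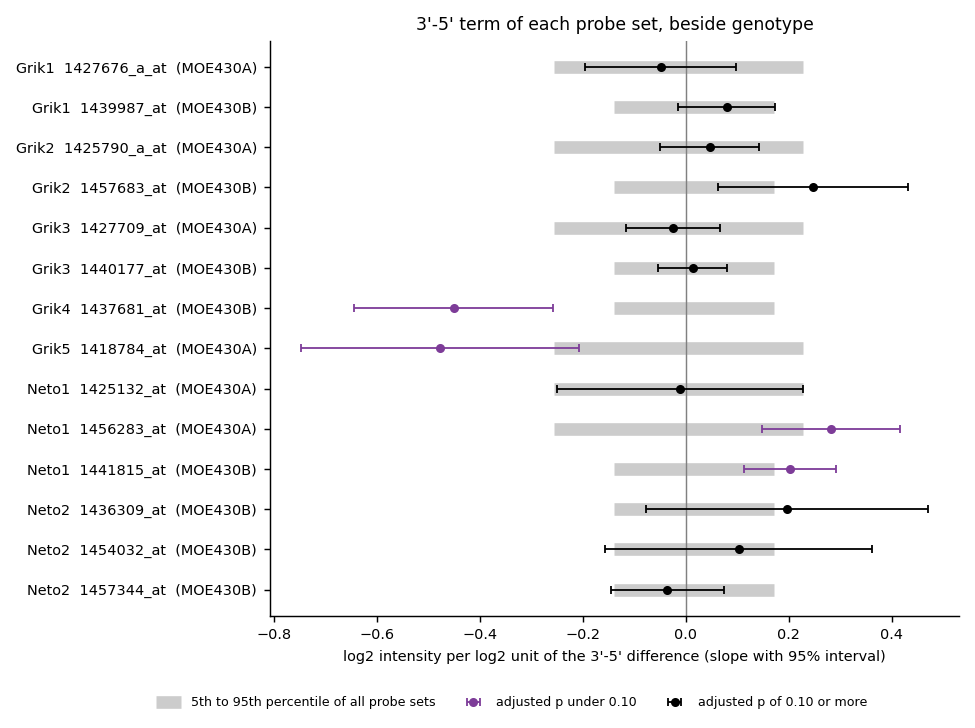
Slope of each probe set on the 3'-5' difference (horizontal axis, log2 intensity per log2 unit) from a model that also holds genotype, with 95% intervals, and in grey the range from the 5th to the 95th percentile of all probe sets of the array. Grik4 (-0.45), Grik5 (-0.48), Neto1 1456283_at (0.28) and Neto1 1441815_at (0.20) passed the false discovery rate of 10% (purple).

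The transcripts whose pattern over the mice was most like that of each member were those with the highest Pearson r over the arrays of that kind, given as a description over arrays that share the array sets. For Grik5 they were Cltb, the clathrin light chain B (r = 0.973), Ubxn6 (0.969) and Znhit2 (0.965), over 11 arrays. For Grik4 all 3 were probe sets of Haghl (0.975, 0.972 and 0.968, over 12 arrays). For Neto1 1456283_at they were Scn1a, a voltage-gated sodium channel (0.972), Dcaf1 (0.968) and Sesn3 (0.958), over 11 arrays. For Neto1 1441815_at they were Tmem33 (0.926), Plcb4, a phospholipase C (0.903), and Frrs1l, an AMPA receptor assembly factor (0.897), over 12 arrays. For Neto2 1436309_at they were Reps2 (0.951), Zfp719 (0.948) and Ythdc2 (0.931). For Grik2 the nearest were Slc35a1 on MOE430A (0.895) and Ror2 on MOE430B (0.929), and for Grik1 and Grik3 the nearest reached 0.911 (Fam104a) and 0.868 (Gm38402) on MOE430A and 0.891 (Ifitm7) and 0.830 (Rfk) on MOE430B. The Grik1 probe set on MOE430A and the Grik3 probe set on MOE430B are dim, so their likeness to Fam104a and Rfk says little about the transcripts.

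Proteins that bind, anchor, modify or recruit kainate receptors were followed as a list of 27 partner genes, 23 of which were measured, each by its brightest probe set. None passed the false discovery rate by genotype, and none had an unadjusted p under 0.05. Of the 23, 19 had the higher mean in UBB+1 tg mice and 4 the lower one, with a median difference of 0.13 (range -0.24 to 0.38). Over all probe sets, 51.7% had the higher mean in UBB+1 tg mice on MOE430A, which held 20 of the 23, and 47.6% on MOE430B. These shares include dim probe sets, whereas 21 of the 23 partners lay at or above the median brightness of their array. The 23 were measured in largely the same mice and are no independent measures. With the 3'-5' difference in the model 17 were higher and the median was 0.09, and without the high array set 18 were higher with a median of 0.13. The 4 with the smallest p were Prkca, a member of the protein kinase C family that phosphorylates the receptor (0.35, SE 0.21), Slc12a5, the potassium-chloride cotransporter that binds Neto2 (0.22, SE 0.13), Pick1, a PDZ-domain scaffold (0.21, SE 0.13), and Snap25, a SNARE protein that takes part in removing GluK5 from the synapse (0.37, SE 0.24), with unadjusted p of 0.125 to 0.150 and an adjusted p of 0.984 each. The ubiquitin ligase scaffold Cul3, which turns over GluK2, was the 1 partner past the false discovery rate on the 3'-5' term (slope 0.43, adjusted p = 0.0177), and its genotype difference was 0.30 (SE 0.32).

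The AMPA, NMDA and delta receptor genes were counted for comparison. Of 13 listed, 11 were measured, 5 with the higher and 6 with the lower mean in UBB+1 tg mice (median -0.00, range -0.24 to 0.49), and none passed the false discovery rate or had an unadjusted p under 0.05. None of them passed on the 3'-5' term.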

How the data were processed

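CA3 tissue was profiled on Affymetrix MOE430A and MOE430B arrays. The intensities are the authors' RMA values as deposited (normalized and summarised per probe set, each kind of array by itself), linear whole numbers on MOE430A, log2-transformed here, and on MOE430B log2 values as deposited by the authors. The RMA version is not given in the sources used here. Precision is limited by how many arrays there are. Probe sets were named by the array annotation; of 45136 tested, 35040 name 1 gene. The members, lists and tests were chosen with earlier results of these data known.

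Differences (UBB+1 tg minus wild type) and 3'-5' slopes were fitted by limma 3.58.1 (lmFit, then eBayes; R 4.3.3) to 22625 and 22511 probe sets, with a false discovery rate of 10% per array; 64 controls per array and the probe set for the transgene's promoter were left out. The 3'-5' difference is the mean over Gapdh and β-actin of 3' minus 5' control probe set. Array sets are complete-linkage clusters on 1 minus Pearson r, cut at 3. All member probe sets are named; likeness names 3 probe sets at or above the 25th percentile per member's brightest probe set, the partner list its 4 smallest p. The fit was tested on simulated data. The alternatives were a rate of 5%, dim or cross-hybridising probe sets left out, a second quantile normalization, the 3'-5' covariate, array sets as a block, another variance model, array weights, probe sets averaged per gene, 1 adjustment over both arrays and leaving out each mouse; leaving out the high array set or keeping only the middle one was added after seeing the data. Marker lists covered the cell types of the hippocampus, vessels and choroid plexus. No coordinates are given, as the files name no genome build.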

Additional observations from a re-analysis of the deposited data

Results flagged for a closer look

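In 4 of 28 groups of mice, 1 mouse lay far from the rest of its genotype by Dixon's test, which chance gives in about 1 of 20 groups. Grik4 was flagged in both genotypes, for the lowest value in UBB+1 tg mouse tg270 (6.22) and in wild-type mouse wt289 (6.44). Neto1 1456283_at was flagged for the highest value in tg270 (10.66), and Grik2 1457683_at for the highest in wt289 (6.82). All 4 flags fell on the 2 mice of the high array set, whose 3'-5' differences were 6.05 (tg270) and 6.10 (wt289) on MOE430A and 6.22 and 6.39 on MOE430B, the largest of all mice. The 3'-5' term beside genotype passed for Grik4 and Neto1 1456283_at and not for Grik2 1457683_at (limma adjusted p = 0.223). Whether RNA quality set the values of these 2 mice was not tested.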

How the results depend on the processing

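No member passed the false discovery rate by genotype under any alternative run, leave-one-out included. The directions of Neto1 1425132_at and 1441815_at, Neto2 1436309_at and 1454032_at and Grik1 1439987_at were the same under all. The low and high array sets alone were not among the alternatives. There Neto1 1425132_at stood at -0.03 (low) and -0.16 (high), Neto2 1454032_at at -0.32 (low) and Grik1 1439987_at at 0.16 (high). With the 3'-5' covariate, Grik3 on MOE430A was at 0.0089, Grik2 1457683_at at -0.070 and Grik4 at 0.16. With array sets as a block, Grik3 on MOE430A was at 0.00084, and with array weights Neto2 1457344_at was at -0.040. In the middle array set alone Grik5 was at 0.31, Neto1 1456283_at at -0.11, Neto2 1457344_at at -0.15, Grik3 on MOE430B at 0.031 and Grik4 at 0.043. Over all probe sets, the count by genotype on MOE430B was 1 with the covariate and 1 with probe sets averaged per gene.

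On the 3'-5' term, the count on MOE430A was 1870, 1112 at a rate of 5% (1 member, Grik5 being lost) and 4937 without the high array set (1 member). On MOE430B it was 363, 177 at 5%, 631 with no genotype in the model and 2597 without the high set (1 member). The slope of Neto1 1425132_at was 0.024 with no genotype in the model and 0.29 without the high set, where Grik3 was at 0.018 on MOE430A and -0.013 on MOE430B. The cause was not tested.

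With 1 mouse left out, the count by genotype on MOE430B ranged from 0 to 1 (1 without wt291), and the differences from -0.029 to 0.13 for Grik1 on MOE430A, -0.00053 to 0.082 for Grik2 1425790_a_at, -0.055 to 0.053 for Grik3 on MOE430A, -0.0013 to 0.28 for Neto1 1456283_at, -0.0060 to 0.29 for Grik2 1457683_at, -0.030 to 0.022 for Grik3 on MOE430B, -0.38 to 0.14 for Grik4 and -0.060 to 0.089 for Neto2 1457344_at. The 3'-5' term then passed for 878 to 1772 probe sets on MOE430A (lowest without wt287) with 0 to 2 members, and for 100 to 701 on MOE430B (lowest without wt287, highest without wt289) with 0 to 2 members. Slopes ranged from -0.094 to 0.0068 for Grik1 on MOE430A, -0.046 to 0.031 for Grik3 on MOE430A, -0.080 to 0.099 for Neto1 1425132_at and -0.060 to 0.0098 for Neto2 1457344_at. The 3'-5' difference between genotypes ranged from 0.14 to 1.00 on MOE430A and 0.27 to 1.07 on MOE430B.

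The number of mice limits the precision: the widest 95% interval, that of Grik5, runs from -1.37 to 0.33 log2 units, and probe sets under the 25th percentile have little signal over background. No paired analysis was possible because no number or litter in the labels links a UBB+1 tg mouse to a wild-type mouse.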
